A study of Mus musculus with 6 samples.

Results

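The genes described here are 9 homeobox transcription factor genes that regulate interneurons and the ventral forebrain: Dlx1, Dlx2, Dlx5, Dlx6, Nkx2-1, Lhx6, Lhx8, Gsx2 and Isl1. They were taken as a fixed list, out of 21938 protein-coding genes on the nuclear chromosomes, and all 9 were found in the annotation. Methylation of CpG cytosines was read from 10 kb upstream of each 5′ end to 10 kb past each gene end, and the question was how far the unmethylated sequence around each gene reaches in cortex with and without Uhrf1. Uhrf1 recruits the maintenance methyltransferase Dnmt1 to newly replicated DNA.

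Oxidative reduced representation bisulfite sequencing (Ox-RRBS) was performed on the full cortex of C57BL/6 mouse embryos at embryonic day 16, with 3 libraries of conditional knockout embryos (cKO, labelled Uhrf1 -/-) and 3 of heterozygous embryos (control, labelled Uhrf1 +/-). In both groups Cre was expressed from the Emx1 locus, so control embryos carried Cre as well and lose 1 copy of Uhrf1 in the cells where it acts. DNA was cut with MspI, 5-hydroxymethylcytosine was oxidised so that it reads as unmethylated, and after bisulfite a cytosine that still reads as C counts as 5-methylcytosine (5mC). Emx1-Cre recombines in the dorsal telencephalon, whereas cortical interneurons migrate in from the ventral telencephalon, where this Cre does not act, and bulk cortex cannot tell the 2 kinds of cell apart.

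The files listed 1605575 cytosines, of which 646645, all in CpGs, had at least 6 reads in all 6 libraries and were used. Libraries held between 18238737 and 31019082 reads over listed cytosines, with a median coverage of 13 to 17 reads. Over the cytosines used, mean methylation was 19.6%, 19.4% and 15.8% in cKO replicates 1, 2 and 3, and 39.4% and 38.9% in control replicates 2 and 3. The 1 remaining library, labelled control replicate 1, had 15.6%, lower than any cKO and against its label. Counts of called regions are therefore given with all 6 libraries and without it. Shares of low cytosines rest on control replicates 2 and 3. The reach of low sequence rests on all 3 controls, with main values also given without this library. Leaving it out is a choice made on the outcome that is measured. Nothing ties libraries to litters or dissections, and p-values measure only the spread between these libraries. The deletion cannot be read from these data, since methylation of the Uhrf1 promoter, 4.87%, 8.56% and 2.38% in cKOs against 4.65%, 9.30% and 7.49% in controls, reports nothing about the deleted exon.

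In GRCm38, Gsx2 lies at chr5:75075601-75077893 (plus strand) and Nkx2-1 at chr12:56531958-56536908 (minus strand). Dlx1 lies at chr2:71528113-71533981 (plus strand), Dlx2 at chr2:71543408-71546754 (minus strand), Dlx5 at chr6:6877805-6882085 (minus strand) and Dlx6 at chr6:6863334-6868568 (plus strand). Lhx6 (chr2:36081953-36105408), Lhx8 (chr3:154306294-154330659) and Isl1 (chr13:116298281-116309689) are on the minus strand.

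Homeobox genes of this kind pattern the embryo, and their loci usually lie in broad stretches rich in CpG islands that stay unmethylated in most tissues, whether or not the gene is transcribed. Silent copies are typically held by Polycomb proteins rather than by DNA methylation. Gsx2 marks progenitors of the lateral ganglionic eminence, Nkx2-1 specifies the medial ganglionic eminence, the Dlx genes act after them in migrating GABAergic interneurons, Lhx6 acts downstream of Nkx2-1 in interneurons of medial origin, and Lhx8 and Isl1 serve cholinergic and striatal neurons.

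The 9 spans held 574 different CpG cytosines with enough reads. Of these, 560 (97.6%) had a mean under 20% in control replicates 2 and 3, against 50.3% of all 646645 cytosines, and 9 (1.57%) were at 50% or more, against 43.8% of all. In cKOs 564 of the 574 were under 20%, against 57.0% of all cytosines. At 50% or more were 0 of the 574, against 6.35% of all. Dlx1 and Dlx2, which face each other on chromosome 2, share 42 of these cytosines, and Dlx5 and Dlx6 on chromosome 6 share 13, so neighbouring genes are not independent of each other. The cytosines counted for each gene ranged from 31 for Dlx5 to 146 for Dlx2, and each gene was read by at least 639 reads in every library.

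Only 5 of 183 measured windows of 100 bp in these spans were at 50% or more in control replicates 2 and 3. Without control replicate 1, 4 of them were called lower in cKOs by a moderated quasi-binomial test, and with all 6 libraries none was. These 4 are printed because they are the first methylated windows measured upstream of Dlx1, Dlx2, Dlx5 and Lhx8. Where methylated sequence begins on their gene side was not seen. None lies in a CpG island, and each holds 1 CCGG, the site that MspI cuts. The sequences are from the plus strand of GRCm38 (RefSeq). Capitals mark the CpGs that were measured on at least 1 strand, and the first capital of the Lhx8 window is the G of a CpG that begins 1 base before it. The Dlx1 window is chr2:71520501-71520600, inside introns of Metap1d and of the antisense transcript Dlx1as. The Dlx2 window is chr2:71556401-71556500, the Dlx5 window chr6:6888201-6888300 and the Lhx8 window chr3:154339601-154339700, all 3 between genes.
Dlx1 methylated window: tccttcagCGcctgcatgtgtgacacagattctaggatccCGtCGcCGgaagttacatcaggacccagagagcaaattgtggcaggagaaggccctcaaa
Dlx2 methylated window: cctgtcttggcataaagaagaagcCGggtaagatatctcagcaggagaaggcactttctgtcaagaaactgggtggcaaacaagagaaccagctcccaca
Dlx5 methylated window: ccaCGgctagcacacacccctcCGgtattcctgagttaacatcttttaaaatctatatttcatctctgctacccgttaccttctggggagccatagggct
Lhx8 methylated window: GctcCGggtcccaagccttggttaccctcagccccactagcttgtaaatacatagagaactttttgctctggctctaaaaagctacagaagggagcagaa

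For comparison, the farthest measured windows with at least 2 cytosines that stayed low on the gene side of the Dlx2 and Lhx8 windows are chr2:71551401-71551500, between genes, and chr3:154333801-154333900, in an exon of the non-coding transcript AI606473. The Dlx2 one was at 2.13%, 12% and 7.02% in cKOs and 2.50%, 7.27% and 18.0% in controls. The Lhx8 one was at 0%, 0.926% and 0.952% in cKOs and 0% in every control. Both are under 20% in all 6 libraries.
Dlx2 nearest low window on the gene side: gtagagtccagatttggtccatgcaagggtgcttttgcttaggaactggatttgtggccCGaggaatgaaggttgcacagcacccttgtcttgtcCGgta
Lhx8 nearest low window on the gene side: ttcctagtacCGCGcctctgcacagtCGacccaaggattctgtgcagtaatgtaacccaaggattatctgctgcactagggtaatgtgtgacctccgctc

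Promoters were nearly unmethylated in both groups (the promoter being the 1000 bp before the 5′ end and the 500 bp after it). Of the 9 genes, 8 had the 3 cytosines needed for a test, and their levels lay between 0.173% and 10.3% in cKO libraries and between 0% and 3.03% in control libraries. Lhx8 had 2 promoter cytosines, 1 of them at 0% in every library and the other at 0%, 4.17% and 10% in cKOs and 14.3%, 0% and 0% in controls, with 7 to 30 reads. The highest promoter value belonged to Dlx1, which was at 1.52%, 10.3% and 1.12% in cKO replicates 1, 2 and 3, against 1.72%, 3% and 1.82% in control replicates 1, 2 and 3. That value is 1 library at 3 cytosines, and the other cKO libraries lie below all controls. The promoter of Dlx2, with 34 cytosines the most densely read, was at 0.173%, 2.42% and 1.55% in cKOs and at 0.212%, 0.153% and 0% in controls. The Isl1 promoter, with 30 cytosines, was at 0.307%, 0.934% and 1.53% in cKOs and at 0.262%, 0.645% and 0% in controls. For Dlx2 and Isl1, cKO replicates 2 and 3 lay above all controls and cKO replicate 1 lay among them.

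The patterning genes looked the same. Nkx2-1 was at 1.08%, 2.30% and 3.57% in cKOs and 0.743%, 0.518% and 0.671% in controls, which do not overlap although both are low. Gsx2 was at 1.86%, 3.23% and 2.31% in cKOs and 1.27%, 0.741% and 3.03% in controls, which overlap. The promoters of Lhx6, Dlx5 and Dlx6 stayed under 2.6% in every library.

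With all 6 libraries the moderated quasi-binomial test called 0 of 8 promoters (called at q under 0.01 where group means also differed by 25 percentage points or more), as it called 0% of all 11787 promoters. An unadjusted p under 0.05 was reached by 0 of the 8 in that test, by 1 with limma on empirical logits and by 3 with a plain binomial test, and neither of these tools called any. Leaving out the library labelled control replicate 1, 0 of 8 were called, where 0.806% of all promoters were called lower. None of the 8 had a control level from which it could have fallen by 25 points, the highest being 2.41%. The mean was higher in cKOs at 7 of 8 promoters, with a median difference of 0.710 points, and over all promoters the median level was also higher in cKO replicates 2 and 3, at 1.61% and 1.56%, than in the other 4 libraries, where it was between 0.569% and 0.676%.

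Library background moved with that small difference. Over the 436 promoter and body cytosines of the 9 genes, 0.730% (95% Wilson interval 0.591 to 0.902), 1.86% (1.66 to 2.08) and 2.00% (1.80 to 2.22) of reads were methylated in cKO replicates 1, 2 and 3. In control replicates 1, 2 and 3 the shares were 0.884% (0.714 to 1.09), 0.973% (0.808 to 1.17) and 0.924% (0.744 to 1.15). At 20 mitochondrial CpG cytosines the same 2 cKO libraries were high, with 0.963%, 3.67% and 3.35% in cKOs and 0.922%, 1.14% and 1.05% in controls. The part of this background in the promoter values was not tested. Reads carry no molecular identifiers, so intervals cover counting error only.

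At their measured cytosines, the bodies of the 9 genes, from 500 bp past the 5′ end to the gene end, were as low as their promoters. Most gene bodies are methylated. The median body of all 13394 tested was at 25.6%, 24.5% and 19.0% in cKO replicates 1, 2 and 3, against 18.8%, 58.6% and 56.8% in control replicates 1, 2 and 3. The 9 bodies lay between 0.394% and 4.27% in cKO libraries and between 0% and 5.64% in control libraries. In the mean of control replicates 2 and 3 only 4.21% of all bodies were lower than that of Dlx1, and 11.4% were lower than that of Dlx5, the highest of the 9.

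**Figure D1:**
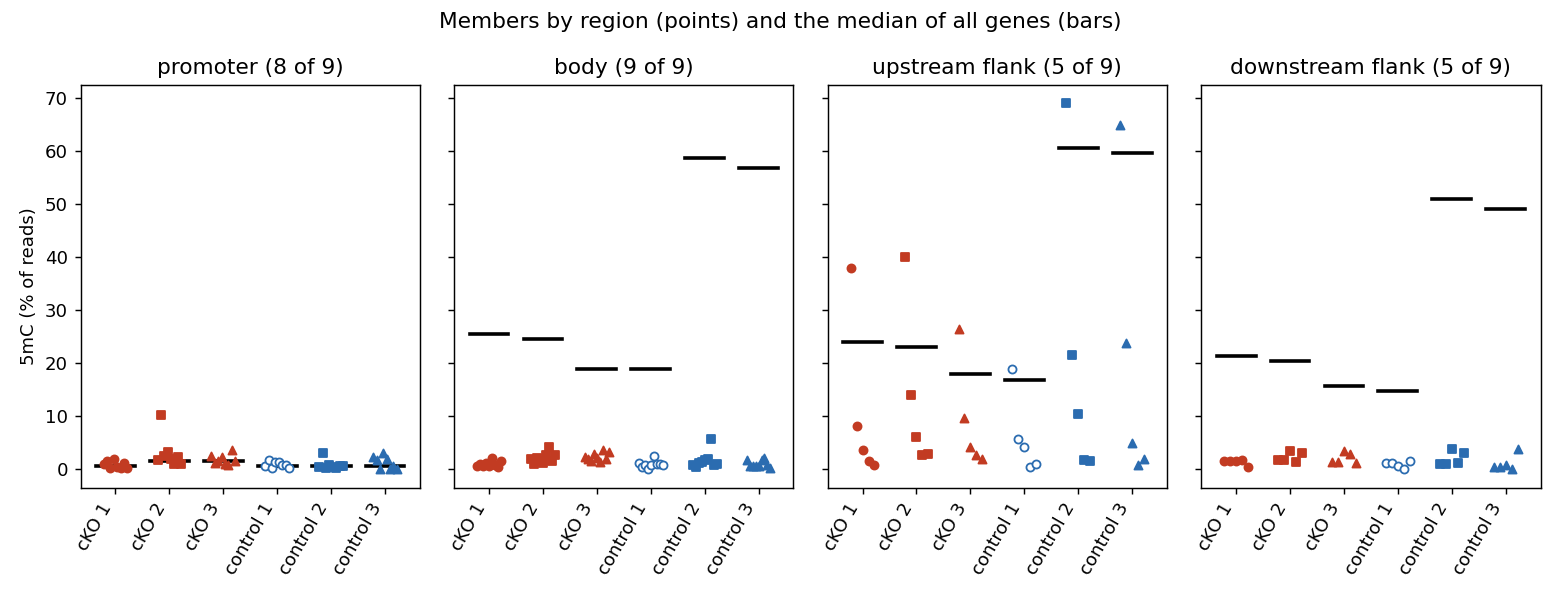
Methylation level (vertical axis, percent of reads that are 5mC) by library (horizontal axis, cKOs in red and controls in blue, the open circles being the library labelled control replicate 1) in the 4 kinds of region. Each point is 1 of the genes and each black bar is the median over all genes: the 9 bodies stay at 5.64% or less while the bars of control replicates 2 and 3 are at 58.6% and 56.8%, and among flanks only Dlx1 lies above the bar of control replicates 2 and 3.

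The body of Dlx2 (62 cytosines) was at 0.673%, 2.05% and 1.51% in cKOs and 0.881%, 1.18% and 0.681% in controls. The body of Dlx1 (51 cytosines) was at 1.03%, 1.03% and 1.92% in cKOs and 0.459%, 0.501% and 0.673% in controls. The body of Nkx2-1 (53 cytosines) was at 0.394%, 1.54% and 1.88% in cKOs and 0.927%, 0.780% and 0.847% in controls. The 3 Dlx1 controls lie below all 3 cKOs, while the groups overlap for Dlx2 and Nkx2-1. Lhx6, at 23456 bp a longer gene, was at 0.605%, 2.00% and 2.39% in cKOs and 1.22%, 0.858% and 1.71% in controls over 52 body cytosines. Isl1 was at 1.61%, 2.72% and 3.19% in cKOs and 0.875%, 0.911% and 0.275% in controls over 15, with no overlap. The bodies of Lhx8, Gsx2, Dlx6 and Dlx5 were read at 24, 20, 16 and 13 cytosines and overlapped between groups in each. The Lhx8 body was at 1.14%, 1.60% and 2.82% in cKOs and 0%, 1.45% and 0.607% in controls. Its measured cytosines reached only 2511 bp past the 5′ end of a gene of 24366 bp, and the rest was not seen.

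With all 6 libraries 0 of 9 bodies were called and 0 had an unadjusted p under 0.05 (moderated quasi-binomial test), as 0% of all bodies were called. Limma on empirical logits and the plain binomial test called 0 of 9 too, with 0 and 6 at an unadjusted p under 0.05. With control replicate 1 left out, 0 of 9 were called where 57.7% of all bodies were called lower. A fall of 25 points needs a level of at least 25% in control replicates 2 and 3, which 10007 of 13394 bodies had and 0 of the 9 had, the highest being 3.91%.

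A single body cytosine did not follow the rest. At position 71545334 on chromosome 2, 1420 bp into Dlx2, methylation was 14.3%, 87.5% and 36.4% in cKOs and 66.7%, 45.5% and 55.6% in controls, on 6 to 11 reads per library. The groups overlap, and its window was not called (q = 0.935 without control replicate 1, moderated quasi-binomial test with Benjamini-Hochberg adjustment). The nearest measured window on each side was under 4% in every library. This cytosine was chosen after its values were seen.

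Flanks gave the differences that passed the test, and only without control replicate 1. Upstream flanks, from 10 kb to 1000 bp before the 5′ end, could be tested for 5 genes. Dlx1 was at 37.8%, 40% and 26.5% in cKO replicates 1, 2 and 3, against 18.9%, 69.0% and 64.9% in control replicates 1, 2 and 3. All of it comes from the 4 cytosines of the methylated window. The cKO libraries lie between control replicate 1 and the other controls. Dlx2 was at 8.06%, 14.0% and 9.57% in cKOs and 5.63%, 21.6% and 23.8% in controls over 8 cytosines, with the cKO libraries again between control replicate 1 and the other controls. Lhx8 was at 3.71%, 6.12% and 4.12% in cKOs and 4.19%, 10.4% and 4.90% in controls over 22 cytosines, and these overlap. The flanks of Gsx2 and Dlx6 were under 2.9% in every library.

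With all 6 libraries 0 of 5 upstream flanks were called and 0 had an unadjusted p under 0.05 (moderated quasi-binomial test), as 0% of all 7059 were called, and limma on empirical logits and the plain binomial test also called 0 of 5, with 0 and 4 at an unadjusted p under 0.05. When control replicate 1 was left out, 1 of 5 was called lower, where 54.9% of all upstream flanks were. The called flank was that of Dlx1, with a mean of 34.8% ± 7.27 in cKOs (SD, n = 3) and 66.9% ± 2.88 in control replicates 2 and 3 (SD, n = 2), a difference of -32.2 points with q = 0.00635 by the same test. Dlx2 fell short in size and q, with -12.1 points and q = 0.0158. Of the 5 flanks, 1 had a control level of at least 25% and this was the one called.

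Downstream flanks, from the gene end to 10 kb past it, were nearly unmethylated in the 5 genes tested, at 0.362% to 3.46% in cKO libraries and 0% to 3.83% in control libraries, against a median over all 9133 of 50.9% and 49.0% in control replicates 2 and 3. For Dlx1 and Dlx2 this is one and the same sequence, the 42 cytosines between the facing genes, which were at 1.55%, 1.78% and 1.31% in cKOs and 1.26%, 0.994% and 0.347% in controls. The Nkx2-1 flank, 27 cytosines on the side of the non-coding gene Sfta3-ps, was at 0.362%, 3.08% and 1.20% in cKOs and 1.56%, 3.13% and 3.80% in controls. Counts were 0 of 5 called with all 6 libraries, where 0% of all were, and 0 of 5 without the library labelled control replicate 1, where 49.4% of all were lower. The unadjusted p was under 0.05 at 0 of 5 in the moderated quasi-binomial test, 1 with limma and 4 with the plain binomial test.

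**Figure D2:**
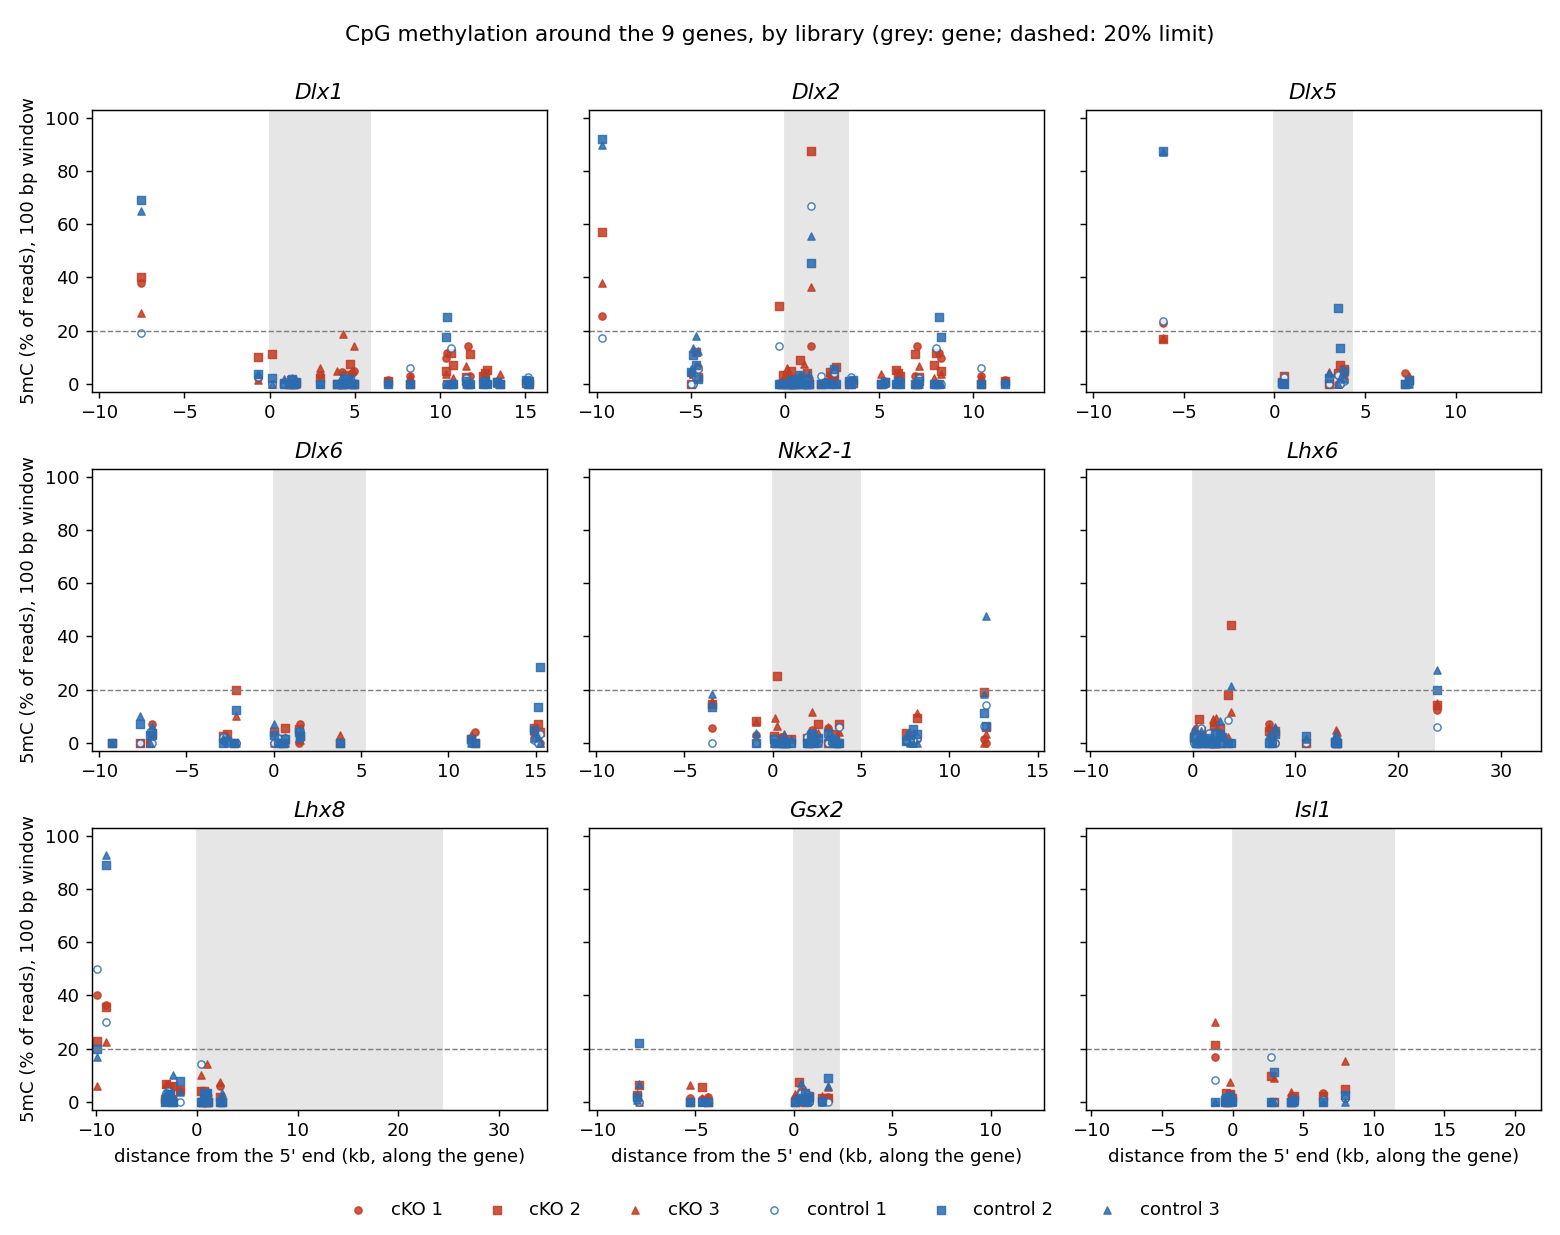
Methylation (vertical axis, percent of reads that are 5mC) of every measured 100 bp window against distance from the 5′ end in kb along the gene (horizontal axis), 1 panel per gene, with cKO libraries in red, controls in blue and the library labelled control replicate 1 as open circles. Most windows lie under the dashed line at 20%, with single libraries above it at a few, and the highest levels in control replicates 2 and 3 are at the far upstream windows of Dlx1, Dlx2, Dlx5 and Lhx8, where both are at 64.9% or more.

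Among windows, a difference passed the test at 4 outer windows, again only without control replicate 1. The Dlx5 window, 6215 to 6116 bp upstream of the 5′ end, was at 22.9%, 16.7% and 17.2% in cKO replicates 1, 2 and 3, against 23.5%, 87.5% and 87.2% in control replicates 1, 2 and 3. Its 2 cytosines gave nearly the same values, 85.7% and 89.3% in control replicate 2 and 22.2% and 23.5% in cKO replicate 1. The cKO libraries and control replicate 1 form a low set there, far under the other controls. The Lhx8 window, 9041 to 8942 bp upstream, was at 36.5%, 35.7% and 22.6% in cKOs and 30.0%, 89.1% and 92.9% in controls, on as few as 14 reads. The Dlx2 window, 9746 to 9647 bp upstream and resting on 1 cytosine, was at 25.6%, 57.1% and 37.8% in cKOs and 17.2%, 92.2% and 89.7% in controls. Of the 4 windows called, it is the one at which the cKO libraries differed most among themselves.

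The Dlx1 window, 7612 to 7513 bp upstream, was the least methylated of the 4 in controls, and its 4 cytosines were unequal. In control replicates 2 and 3 the outermost was at 46.7% and 45.8% and the next one at 80% and 91.7%. In cKOs these 2 cytosines were at 40%, 42.9% and 15.4% and at 50%, 14.3% and 26.9%. With 8 to 26 reads per cytosine, differences between single cytosines were not tested.

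**Figure D3:**
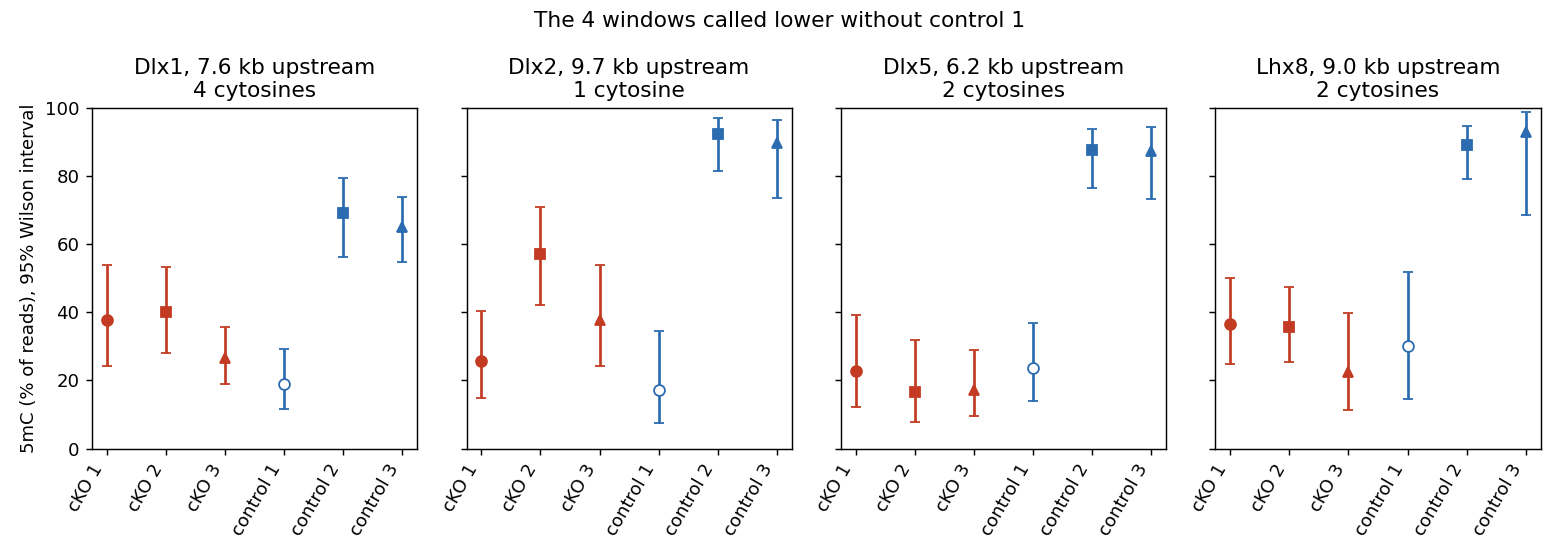
Methylation (vertical axis, percent of reads that are 5mC, bars being 95% Wilson intervals for counting error) of each library (horizontal axis, cKOs in red on the left, controls in blue) at the 4 windows that were called lower when the library drawn as an open circle, labelled control replicate 1, was left out. In each panel cKOs lie below control replicates 2 and 3, and the open circle is at 17.2% to 30.0%.

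Over all 183 windows 0 were called with all 6 libraries (moderated quasi-binomial test, 2 with an unadjusted p under 0.05, those of Dlx5 and Lhx8), as 0% of all 285466 windows were called. Limma on empirical logits called 0, with 8 at an unadjusted p under 0.05. The plain binomial test, in which each read counts as independent, called 3, with 40 at an unadjusted p under 0.05. The share of all windows called by that test is not given here, so the 3 are not read as a result about these genes. When control replicate 1 was left out, 4 of the 183 windows were called lower, where 43.8% of all windows were, and 0 were called higher, where 0.0021% of all were. Only 6 of the 183 windows could fall by 25 points, against 65.4% of all windows. Of the 6, 4 were called lower, and over the genome 67% of such windows were. The other 2 were the Dlx2 body cytosine and a single cytosine downstream of Nkx2-1, in an intron of Sfta3-ps. It was at 0%, 5.88% and 3.33% in cKOs and 14.3%, 6.25% and 47.8% in controls (q = 0.0303 without control replicate 1, same test). Control replicate 3 alone carries its level, and control replicate 2 is close to cKO replicate 2.

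The differences at the 4 windows, without that library, were -68.4 points for Dlx5 (q = 2.05e-06), -59.3 points for Lhx8 (q = 3.23e-05), -50.7 points for Dlx2 (q = 0.000199) and -32.2 points for Dlx1 (q = 0.000790), all by the moderated quasi-binomial test with Benjamini-Hochberg adjustment. Methylation kept in cKOs, as a percentage of the mean of control replicates 2 and 3, was 52.0% for Dlx1, 44.2% for Dlx2, 34.8% for Lhx8 and 21.7% for Dlx5. Over the 168351 windows of the genome at 50% or more in those controls the median was 41.2%, with quartiles of 34.0% and 50.1%, so Dlx1 lay just above the upper quartile and Dlx5 below the lower one. With all 6 libraries the differences were -47.1 points for Dlx5 and -39.0 points for Lhx8 (both q = 0.322), -26.2 points for Dlx2 (q = 0.426) and -16.2 points for Dlx1 (q = 0.486), by the same test.

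A window went the other way upstream of Isl1. Its only cytosine, at position 116310975 on chromosome 13 and 1286 bp before the 5′ end, was at 16.7%, 21.4% and 30.0% in cKOs and 8.33%, 0% and 0% in controls. The groups do not overlap, but coverage was 6 to 20 reads and the window was not called (q = 0.439 with all 6 libraries and q = 0.0417 without control replicate 1, moderated quasi-binomial test). It is named because of its values. The Isl1 gene itself and the rest of its span were low in both groups.

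The reach of the low sequence was then measured. Windows of 100 bp were tiled outward from each 5′ end, those with at least 2 cytosines were kept, and the reach ran to the last window under 20% before the first at 20% or more. This is a description with no test. In the group means the 9 genes had a median reach, both sides together, of 13700 bp in cKOs and 12000 bp in controls. It ran from 5800 bp for Lhx8 to 22300 bp for Dlx6 in both groups. The medians differ through Dlx5 alone, at its 1 measured upstream window, described below. Without control replicate 1 the control median was again 12000 bp. For all 10850 genes with a promoter under 20% the median was 1100 bp in cKOs and 900 bp in controls. More windows were measured around the 9 genes, a median of 15 against 9, which bears on how far a reach can be followed.

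The reach in controls exceeded that of 80.1% of those genes for Lhx8 and of 94.6% for Dlx6, with the other 7 between. It was 15300 bp for Dlx1, 16600 bp for Dlx2, 14100 bp for Lhx6 and 12000 bp for Nkx2-1. For Gsx2 it was 9500 bp, for Dlx5 7500 bp and for Isl1 7100 bp. All of the Dlx1 reach lay downstream, since its 1 upstream window with at least 2 cytosines was the methylated one. Without control replicate 1 the control values were unchanged. In cKOs 8 of the 9 values were the same. When windows with 1 cytosine were counted as well, the reach of Dlx2 was 6400 bp in both groups, ended by the single body cytosine. That of Lhx6 was then 23800 bp in both groups. Without control replicate 1 it was 14100 bp in controls, since a window over the limit was met at 23700 bp. Under this rule Nkx2-1 reached 15600 bp in cKOs and 15500 bp in controls. Isl1 reached 8600 bp in cKOs and 9300 bp in controls, and Dlx5 13700 bp in cKOs and 7500 bp in controls. With at least 2 cytosines per window the exception was Dlx5, which reached 13700 bp in cKOs, since its upstream window averaged 18.9% there, just under the limit. It was over the limit in cKO replicate 1, at 22.9%, and under it in cKO replicates 2 and 3.

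**Figure D4:**
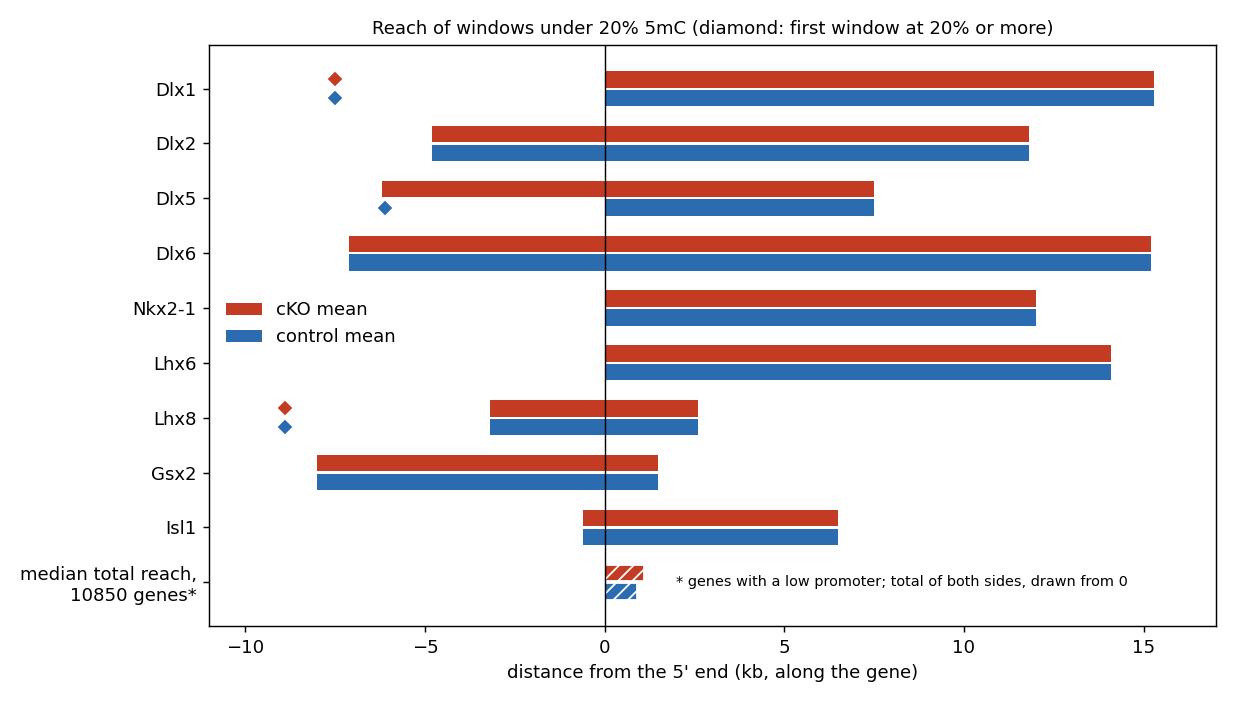
Reach of windows under 20% 5mC on each side of the 5′ end (horizontal axis, kb along the gene) for the 9 genes, from the mean of the cKO libraries (red, upper bar) and of the control libraries (blue, lower bar). Diamonds mark the first window at 20% or more and hatched bars the median total reach of all genes with a low promoter, 1100 bp in cKOs and 900 bp in controls. A bar with no diamond found no such window within the 10 kb searched, and a missing left bar for Nkx2-1 and Lhx6 means that no window with 2 cytosines was measured upstream.

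Most ends were not found. No window at 20% or more was met on either side within the search for 7 of 9 genes in cKOs and 6 of 9 in controls, where this held for 23.8% and 21.5% of all genes with a low promoter. A side with no measured window counts as one with no end, as upstream of Nkx2-1 and Lhx6. Without control replicate 1 it was again 6 of 9 in controls, against 20.6% of all. The ends that were found in controls were 7500 bp upstream of Dlx1, 6100 bp upstream of Dlx5 and 8900 bp upstream of Lhx8. The Dlx2 window of 1 cytosine does not count in this measure. Sequence between measured windows was not seen, and the largest gap between neighbouring cytosines of a span was between 2821 bp for Isl1 and 9736 bp for Lhx6.

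Extending the search to 50 kb, an alternative chosen after seeing the data, gave a median reach of 33700 bp in cKOs and 23400 bp in controls, against 4300 bp in cKOs and 1500 bp in controls for all 10850 genes, with a median of 23 windows measured around the 9 genes and 20 around all. In controls the first high window was then met 19900 bp upstream of Dlx2, 11300 bp upstream of Lhx6, 47300 bp upstream of Nkx2-1 and 32600 bp upstream of Dlx6. Downstream it was met 25500 bp from the 5′ end of Gsx2 and 34700 bp from that of Lhx8. Without control replicate 1 an upstream end was also met for Gsx2, at 32100 bp. For Isl1 no end was met on either side, on 5 windows upstream and 3 downstream. Low windows continued to 56100 bp downstream of the Lhx6 5′ end in both groups. Only Dlx5 and Dlx6 differed between groups in this search, both at 57600 bp in cKOs against 21700 bp and 25500 bp in controls. These neighbours are 1 locus, bounded in controls by the same high windows, 57400 bp apart for both genes. The medians of the groups differ through this locus alone. An end of it in controls is the Dlx5 upstream window of 2 cytosines. That window averaged 18.9% in cKOs, just under the limit, and was over it in cKO replicate 1. These lengths rest on few windows far from the genes, as with 2 measured upstream of Nkx2-1.

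At measured cytosines both Dlx pairs read as low stretches. These were cut at windows already found to be methylated, save at 10 kb upstream of Dlx6. Neighbouring cytosines lay up to 4346 bp apart in the Dlx1 and Dlx2 stretch. In the Dlx6 and Dlx5 stretch they lay up to 7430 bp apart, and sequence in such gaps was not seen. Between the methylated windows upstream of Dlx1 and of Dlx2 lie 35800 bp (chr2:71520601-71556400) with both genes, and 198 of the 199 cytosines measured there had a mean under 20% in control replicates 2 and 3, and likewise 198 in cKOs. The exception is the body cytosine of Dlx2 described above. The median over these cytosines was 0.370% in cKOs and 0% in control replicates 2 and 3. The antisense transcript Dlx1as overlaps Dlx1 within this stretch. From 10 kb upstream of Dlx6 to the methylated window of Dlx5 (chr6:6853334-6888200) all 68 cytosines were under 20% in both groups, with a highest mean of 10% in cKOs and 16.7% in control replicates 2 and 3. That stretch holds Dlx6, Dlx5 and part of the non-coding gene Dlx6os1.

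By distance from the 5′ end, levels from reads summed over the 9 genes stood out in 1 band. Between 10 kb and 5000 bp upstream, 21 cytosines of 6 genes were at 13.6%, 14.7% and 10.8% in cKOs and 9.56%, 35.9% and 31.6% in controls. Between 5000 and 1000 bp upstream 41 cytosines were at 1.16%, 3.83% and 3.96% in cKOs and 1.93%, 2.23% and 3.89% in controls. Every band from there to the far side of the genes was at 2.33% or less in each library.

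What the genes share beyond their role is CpG-rich sequence. CpG islands, computed from the genome sequence as stretches of at least 200 bp with a GC content of at least 50% and an observed to expected CpG ratio of at least 0.6, numbered from 7 for Lhx6 to 13 for Dlx1 per span. The median gene of the 9 had 10 islands covering 19.9% of its span, against 5 islands and 4.43% for all 21938 genes. CpG density was 19.6 per kb against 11.3 per kb. For Nkx2-1 and Dlx1 the island share, 26.9% and 26.7%, exceeded that of 99.3% and 99.2% of all genes. Of the 574 cytosines, 501 (87.3%) lay in an island, which is where MspI fragments concentrate.

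Other genes of interneurons and the ventral forebrain were read from a list of 45 that includes Sp8, Gad1 and Reln. Of their promoters 26 were tested and 0 were called, with or without control replicate 1. The most deeply read of them, that of the homeobox gene Gbx2, was at 0.960% in cKOs and 0.446% in controls (means of 3 libraries each). Their bodies were more varied, and with all 6 libraries 0 of them were called. Of 42 tested, 13 had a level of at least 25% in control replicates 2 and 3, and 8 were called lower without control replicate 1, where 57.7% of all bodies were. The body of Reln, which encodes a secreted guidance protein of Cajal-Retzius cells, was among them, at 29.7% ± 4.90 in cKOs (SD, n = 3) against 66.4% ± 3.24 in control replicates 2 and 3 (SD, n = 2), with q = 6.51e-06 (moderated quasi-binomial test). The called bodies also included Satb1, Calb2, Pvalb, Vip, Etv1 and Lmo3, with Calb2, Pvalb and Vip marking interneuron classes. The uncalled body with most reads, that of Sp9, a zinc finger factor of ventral progenitors, was at 1.24% ± 0.145 in cKOs (SD, n = 3) and 1.67% ± 0.311 in control replicates 2 and 3 (SD, n = 2). The reach of low sequence around the 26 genes with a low promoter had a median of 9650 bp in cKOs and 8950 bp in controls. Without control replicate 1 the control median was 7800 bp.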

How the data were processed

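Per the labels and the study's methods, the authors oxidised and bisulfite-treated MspI-digested DNA, mapped reads with Genomatix software to GRCm38 and excluded positions with few reads, and methylKit is named in the submitters' processing notes. The authors deposited, for each library, the coverage (a count of reads per cytosine) and the percent of those reads that were methylated. No normalization was applied to either.

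Methylated reads were recovered as coverage times percent, and cytosines with at least 6 reads in all 6 libraries were kept. Genes were taken from GENCODE M21, with at least 3 cytosines per region tested and 1 per window. A quasi-binomial F test (two-sided, group term, dispersion moderated as in limma with a floor of 1) was fitted over all features of a class, with Benjamini-Hochberg adjustment, in Python 3.11.15 with numpy 2.4.6, scipy 1.17.1 and pandas 2.3.3. The test was checked on simulated data. The 9 genes and the list of 45 were chosen with earlier results of these data known. All regions of the 9 genes were described. Windows were named that bound the low stretch, were highest in controls or were called, and of the list of 45 called genes and the uncalled one with most reads, and some results of that list are not reported here. No expression was measured, so the tissue label was not checked against marker levels. Alternatives changed the coverage minimum, thresholds, window rules, test and libraries used.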

Additional observations from a re-analysis of the deposited data

Results flagged for a closer look

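Mitochondrial CpG cytosines lie outside the tested regions and serve here as a measure of library background, and their signal stood above the control libraries in 2 cKO libraries. At 20 such cytosines 3.67% of reads were methylated in cKO replicate 2 (95% Wilson interval 3.37 to 4.01, counting error only) and 3.35% in cKO replicate 3 (3.10 to 3.63), against 0.922% to 1.14% in the 3 controls. The part of this signal in the small promoter and body differences was not tested.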

How the results depend on the processing

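Counts of called promoters, bodies and downstream flanks stayed at 0 under every alternative run. Upstream flanks called numbered 0 to 1 when each library was left out in turn, the 1 (Dlx1) arising without control replicate 1, and windows 0 to 4, the 4 arising likewise. Without that library the values were again 1 flank and 4 windows on autosomes alone, at q under 0.05 and with the plain binomial test. With all 6 libraries the plain binomial test called 3 windows. The shares of all flanks and windows called under these alternatives are not given here. The median reach, 13700 bp in cKOs and 12000 bp in controls, was 12000 and 9500 bp at a coverage minimum of 10, 8000 bp in both at 20, 12000 and 9500 bp with a limit of 10%, and 7500 bp in both with at least 4 cytosines per window. Searched to 50 kb it was 33700 and 23400 bp. In controls it was 13700 bp when 2 consecutive high windows were required and 9800 bp with at least 1 cytosine per window. Leaving out 1 library gave 12000 to 13700 bp in cKOs. The differences at the 4 windows and at the Dlx1 and Dlx2 upstream flanks kept their direction under every alternative run, while that of the Dlx6 body was -0.0750 points with all 6 libraries and 0.172 points without control replicate 1. Promoter and body levels moved by at most 2.99 points. Shared replicate numbers did not pair the libraries (r of -0.0425, 0.0148 and -0.0714 between same-numbered libraries over 29385 windows), and with a replicate block 0 features were called in each class. Depth limits single cytosines most, since coverage could be as low as 6 reads.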

Other observations

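Flanks of the other interneuron and ventral forebrain genes could fall where their promoters could not: 4 of 26 upstream and 10 of 23 downstream flanks were at 25% or more in control replicates 2 and 3, and 0 of 26 promoters were. Without control replicate 1, 4 of 26 upstream flanks were called lower (moderated quasi-binomial test), where 54.9% of all upstream flanks were. That of Olig1, an oligodendrocyte lineage factor, was at 22.2% in cKOs and 68.6% in control replicates 2 and 3. That of Npas1, a factor of GABAergic neurons, was at 19.5% in cKOs and 71% in these controls. Maf was at 22.2% in cKOs and 56.3% in these controls, and Gbx1 at 39.3% in cKOs and 69.8% in these controls. These flanks rest on few cytosines, 3 for Olig1, 4 for Npas1, 6 for Maf and 5 for Gbx1. Of 23 downstream flanks 9 were called lower, where 49.4% of all were. That of Shh, the ventralising signal, was at 52.9% in cKOs and 88.0% in control replicates 2 and 3, over 5 cytosines. That of Nkx2-2, a ventral homeobox factor, was at 32.7% in cKOs and 80.9% in these controls, over 4 cytosines. With all 6 libraries 0 of these flanks were called.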
